A study of Mus musculus with 12 samples.

Results

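Genes of the Notch pathway were followed by RNA-seq in mouse embryonic stem cells (mESCs) as they left pluripotency, in a control line and in a line with less cathepsin L. The genes are the receptors Notch1, Notch2 and Notch3, the ligands Dll1, Dll3 and Jag1, the receptor-modifying enzyme Lfng and the target genes Hes1, Hes5 and Hey1. All 10 were found by symbol among the 24495 genes of the count table. The cells were CCE mESCs with a Nanog-GFP reporter, sorted for GFP by the study's methods. The shSC line carried a scramble hairpin from a lentiviral vector and the shCTSL line a hairpin against Ctsl, which encodes the lysosomal protease cathepsin L, so both lines were transduced and selected with puromycin. Each line was sampled undifferentiated with LIF (Day 0) and as embryoid bodies grown without LIF in all-trans retinoic acid for 2 or 4 days (Day 2, Day 4), with 2 libraries in each of 6 groups. A single pair of lines was compared, and which Ctsl hairpin the libraries carry was not stated in the labels. The study asked how loss of cathepsin L, which clips histone H2A, alters gene expression in differentiation.

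Notch signaling passes between touching cells. A Delta-like or Jagged ligand on one cell pulls on a Notch receptor of its neighbour, the sheddase ADAM10 and then gamma-secretase cut the receptor, and the freed intracellular domain enters the nucleus, where it binds RBPJ and Mastermind proteins to switch on genes such as Hes1, Hes5 and Hey1. Fringe enzymes such as LFNG add sugars to the receptor and shift its preference between ligands. In mESCs the pathway is known to favour exit from self-renewal toward neural fates, and in the embryo it patterns somites, vessels and the nervous system. RNA levels of these genes do not measure the cleavage of the receptors.

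The 12 libraries held 11171111 to 27155553 counted reads each. The libraries of 5 groups differed between replicates 2.51 to 9.99 times as much as counting alone gives (chi-square per degree of freedom), whereas those of shCTSL Day 2 differed 127 times as much. The SD of the log2 ratio between the 2 libraries was 0.636 in that group and 0.119 to 0.222 in the others. The difference followed gene length. In replicate 1 of shCTSL Day 2 genes with under 2 kb of exons lay a median of 0.59 above replicate 2 on the log2 scale, and genes over 8 kb lay 0.64 below it (median −0.64). The 3 receptor genes are among the long ones, so where leaving out a library of this group changed a call, that value is given beside the result. Ctsl itself measured 137 and 147 CPM (counts per 1000000 reads, scaled by TMM) in shSC Day 0 and 39.2 and 37.5 in shCTSL Day 0. It was lower in shCTSL at Day 0 (log2 fold change −1.89, SE 0.14, FDR = 0.00246, the Benjamini-Hochberg adjusted p of edgeR's quasi-likelihood test) and at Day 2 (−1.06, SE 0.14, FDR = 0.0342). At Day 4 the difference was −0.83 (SE 0.14, FDR = 0.0896), with 484 and 423 CPM against 257 and 253, and it was called by DESeq2 (3.1e-05), limma-voom (0.000193) and with length offsets (0.0061). In every library of shCTSL Ctsl lay below the shSC libraries of the same day, but the calls at Day 0 and Day 2 depended on the fit. The Day 0 call was lost without either shCTSL Day 0 library (FDR = 0.117 and 0.129). The Day 2 call was lost with limma-voom (0.428), with the compared libraries alone (0.708), with a replicate block (0.0631) and without any single library outside shCTSL Day 2 (0.0847 to 0.474).

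The cells lost their pluripotent profile in both lines. The summed level of 8 markers of pluripotent stem cells, Nanog, Pou5f1 and Sox2 among them, went from 6320.2 to 6373 CPM at shSC Day 0 to 373 to 444 at Day 4, and from 5880.2 to 5952 to 372 to 429.7 in shCTSL, with 8 of 8 lower in each line. Endothelial markers rose in 7 of 8 by Day 4 in each line, with Pecam1 lower. Their summed level went from 99.4 to 101 CPM to 368 to 384 in shSC. In shCTSL it was lower, going from 78.1 to 79.6 CPM to 285 to 349. At Day 2 it was 239 to 257 CPM in shSC and 121 to 161 in shCTSL, though no single marker was called between the lines. Of the endoderm markers 8 of 8 rose in shSC and 7 of 8 in shCTSL. Neural markers were mixed, with 6 of 8 higher and 2 of 8 lower at Day 4 in each line, and Pax6 was higher at Day 2 (66.7 and 68.1 CPM in shSC) than on either other day. Among the presomitic mesoderm markers Msgn1, Mesp1 and Ripply2 stayed between 0 and 0.316 CPM in all libraries. T, Tbx6 and Mesp2 were low, with no library above 3.88 CPM. Meox1 and Tcf15 were expressed but went opposite ways in both lines. In shSC Meox1 rose from at most 2.29 CPM at Day 0 to 89.3 and 102 at Day 2. Tcf15 was highest in undifferentiated cells, at 121 and 140.3 CPM in shSC, and fell to 3.36 and 4.37 at Day 4. These are mixed cultures, in which fewer cells of a type and less RNA per cell cannot be told apart, and the part of these cell types in the values below was not tested.

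The pathway changed its composition during differentiation. By Day 2 of shSC the receptors parted, with Notch1 falling and Notch2 and Notch3 rising, and the ligands crossed, with Dll1 rising and Jag1 falling. From Day 2 to Day 4 Dll1 fell and Jag1 rose again, back toward their Day 0 levels, and Dll3 fell. Lfng fell early and stayed low, Hey1 rose at each step, Hes1 was abundant throughout and Hes5 was barely detected. A gene is called here when its FDR lies below 0.05 and its change reaches 1.5-fold. In shSC, 4 of the 9 genes that passed the filter on low counts were called higher at Day 2 than at Day 0, against 29.3% of all 15532 genes tested, and 3 lower, against 25.3%. From Day 0 to Day 4, 3 were higher (32.1% of all genes) and 3 lower (28.7%), and from Day 2 to Day 4, 2 were higher (11.4%) and 2 lower (12.4%). In shCTSL the counts were 5 higher (30.9%) and 3 lower (24.6%) at Day 2, 5 higher (32.3%) and 4 lower (27.6%) at Day 4, and 2 higher (11.0%) and 2 lower (12.4%) between Day 2 and Day 4. With so many genes changing, the shares do not set these 9 genes apart. Their median log2 fold changes from Day 0 in shSC were 0.35 at Day 2 and 0.49 at Day 4, where all genes had 0.02 and 0.03. On each of these days 5 of the 9 lay above 0 and 4 below. The medians are the values of Hes1 at Day 2 and Dll1 at Day 4, neither of them called, so they do not set the genes apart either.

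**Figure D1:**
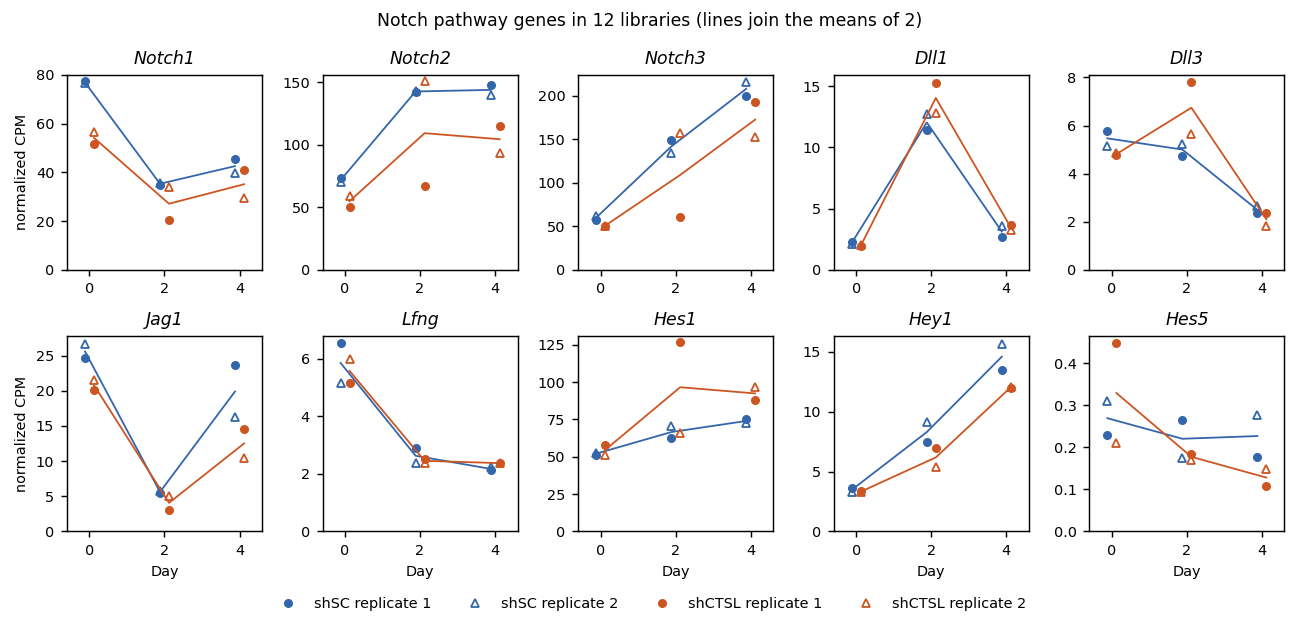
Normalized CPM of the 10 genes (vertical axes, each from 0) against day of differentiation, with a point for every library, filled circles for replicate 1, open triangles for replicate 2, blue for shSC and orange for shCTSL; lines join the means of 2 libraries. Dll1 peaks and Jag1 dips at Day 2 in both lines, and in shCTSL Day 2 replicate 1 (60.8 CPM) and replicate 2 (157) of Notch3 lie far apart.

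Notch1, the receptor long studied in lymphocytes and neural progenitors (chr2:26313423-26372183, minus strand, mm9), fell on differentiation. It measured 77.3 and 76.5 CPM at shSC Day 0, 34.9 and 35.7 at Day 2, and 45.5 and 39.6 at Day 4. Both Day 0 libraries lay above all 4 later ones. The log2 fold change was −1.12 (SE 0.22, FDR = 0.00127) at Day 2, a 2.18-fold fall, and −0.85 (SE 0.22, FDR = 0.00577) at Day 4. In shCTSL the level started lower, at 51.6 and 56.7 CPM, and reached 20.3 and 33.9 at Day 2 and 40.8 and 29.4 at Day 4. Those falls were −0.99 (SE 0.22, FDR = 0.00297) and −0.63 (SE 0.22, FDR = 0.0284). The Day 4 fall in shCTSL was the least firm. It lost its call without shSC Day 0 replicate 2 (FDR = 0.0521), either shCTSL Day 0 library (0.064 and 0.119) or shCTSL Day 4 replicate 2 (0.203).

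Notch2 (chr3:97817461-97954290, plus strand), a receptor of broad expression, rose by Day 2 and then held its level. Its libraries read 73.5 and 69.8 CPM at shSC Day 0, 142 and 143 at Day 2, and 148 and 139.5 at Day 4. The rise was 1.0 on the log2 scale at Day 2 (SE 0.28, FDR = 0.0117) and again 1.0 at Day 4 (SE 0.28, FDR = 0.0103), so it was complete by the first sampling. Without shSC Day 0 replicate 1 the Day 2 call was lost (FDR = 0.051), as it was without replicate 2 at Day 2 (0.0627) and Day 4 (0.0594), although the value stayed between 0.98 and 1.03. In shCTSL it read 50.3 and 59.3 CPM at Day 0, 67.3 and 151 at Day 2, and 115 and 93.7 at Day 4. The Day 2 libraries differed from each other by more than the means of the days did. The Day 2 rise of 1.0 (SE 0.29, FDR = 0.0122) came to 0.31 without replicate 2 of that group (FDR = 0.0323, under the fold cutoff) and lost its call without shCTSL Day 0 replicate 1 (FDR = 0.0838). The Day 4 rise was 0.93 (SE 0.29, FDR = 0.0161), and it was not called without shCTSL Day 0 replicate 1 (FDR = 0.101) or shCTSL Day 4 replicate 1 (0.0902).

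Notch3 (chr17:32257765-32303825, minus strand), the receptor best known from smooth muscle and pericytes, rose the most of the receptors by Day 4. It measured 57.4 and 62.3 CPM at shSC Day 0, 149 and 134 at Day 2, and 199.7 and 216 at Day 4, with no overlap between days. The log2 fold change was 1.24 (SE 0.33, FDR = 0.00793) at Day 2 and 1.80 (SE 0.33, FDR = 0.000827) at Day 4, a 3.47-fold rise. The further step from Day 2 to Day 4 was 0.56 (SE 0.32, FDR = 0.233) and did not pass the test. Without shSC Day 0 replicate 1 the Day 2 rise had an FDR of 0.0526. In shCTSL the libraries read 50.7 and 50.6 CPM at Day 0, 60.8 and 157 at Day 2, and 193 and 152 at Day 4. The step from Day 2 to Day 4 was 0.65 (SE 0.32, FDR = 0.161), and 1.5 (FDR = 8.71e-08) without replicate 2 of shCTSL Day 2. The rise from Day 0 to Day 4 was 1.77 (SE 0.33, FDR = 0.000993), and every library at Day 4 lay above those at Day 0. The Day 2 rise was 1.11 (SE 0.33, FDR = 0.0143) with both libraries and 0.27 (FDR = 0.0763) without replicate 2, and it also lost its call without shCTSL Day 0 replicate 1 (0.0681) or replicate 2 (0.0673).

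Dll1 (chr17:15504318-15513836, minus strand), a Delta-like ligand of neurogenesis and somite formation, was a Day 2 gene. It read 2.29 and 2.11 CPM at shSC Day 0, 11.4 and 12.7 at Day 2, and 2.70 and 3.54 at Day 4. The same course was seen in shCTSL, with 1.94 and 2.0 CPM at Day 0, 15.3 and 12.8 at Day 2, and 3.68 and 3.25 at Day 4. Every Day 2 library lay above every other library of its line. The rise from Day 0 was 2.45 (SE 0.20, FDR = 2.73e-06) in shSC and 2.83 (SE 0.22, FDR = 1.56e-06) in shCTSL, 5.48- and 7.09-fold. The fall from Day 2 to Day 4 was −1.97 (SE 0.18, FDR = 4.5e-05) and −2.01 (SE 0.18, FDR = 3.78e-05). At Day 4 Dll1 was still above Day 0 in shCTSL (0.81, SE 0.23, FDR = 0.00865), a call lost without shCTSL Day 0 replicate 1 (0.0562). In shSC that difference was 0.49 (SE 0.22, FDR = 0.0665), and it was called only without shSC Day 4 replicate 1 (0.69, FDR = 0.0357).

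Jag1 (chr2:136907192-136942380, minus strand), a Jagged ligand with roles in vessels and the inner ear, ran the other way. It measured 24.6 and 26.6 CPM at shSC Day 0, 5.51 and 5.69 at Day 2, and 23.6 and 16.2 at Day 4. The Day 2 libraries lay below all others. Jag1 fell by 2.19 on the log2 scale at Day 2 (−2.19, SE 0.25, FDR = 3.43e-05), a 4.58-fold fall, and rose again by 1.83 (SE 0.25, FDR = 0.000444) to Day 4, where it stood at −0.36 from Day 0 (SE 0.24, FDR = 0.196). In shCTSL it read 20.1 and 21.5 CPM at Day 0, 3.08 and 5.02 at Day 2, and 14.6 and 10.4 at Day 4. The fall was −2.33 (SE 0.26, FDR = 3.18e-05) and the return 1.6 (SE 0.26, FDR = 0.00146), which limma-voom did not call (FDR = 0.194) and neither did a fit of the compared libraries alone (0.0531). In that line Jag1 remained lower at Day 4 than at Day 0 (−0.74, SE 0.24, FDR = 0.0214). That call was lost without either shCTSL Day 0 library (0.0608 and 0.0851) or shCTSL Day 4 replicate 2 (0.16). Over the 12 libraries the log2 levels of Dll1 and Jag1 had a Pearson correlation of −0.96, a description of libraries that share their days.

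Dll3 (chr7:29076673-29087257, minus strand), a divergent ligand that acts inside the cell and is known to restrain Notch signaling, held until Day 2 and then fell. It read 5.79 and 5.14 CPM at shSC Day 0, 4.75 and 5.25 at Day 2, and 2.34 and 2.64 at Day 4. Only the Day 4 libraries stood apart. From Day 2 to Day 4 it fell by 1.01 (−1.01, SE 0.22, FDR = 0.00567) and from Day 0 to Day 4 by 1.14 (−1.14, SE 0.22, FDR = 0.00106), the former not called without shSC Day 4 replicate 1 (FDR = 0.0642). In shCTSL it read 4.77 and 4.85 CPM at Day 0, 7.82 and 5.66 at Day 2, and 2.38 and 1.82 at Day 4, and the falls to Day 4 were −1.67 from Day 2 (SE 0.22, FDR = 0.000363) and −1.2 from Day 0 (SE 0.23, FDR = 0.00108). Its Day 2 value in shCTSL was 0.48 above Day 0 (SE 0.21, FDR = 0.07), and 0.70 (FDR = 0.00753) without replicate 2 of shCTSL Day 2.

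**Figure D2:**
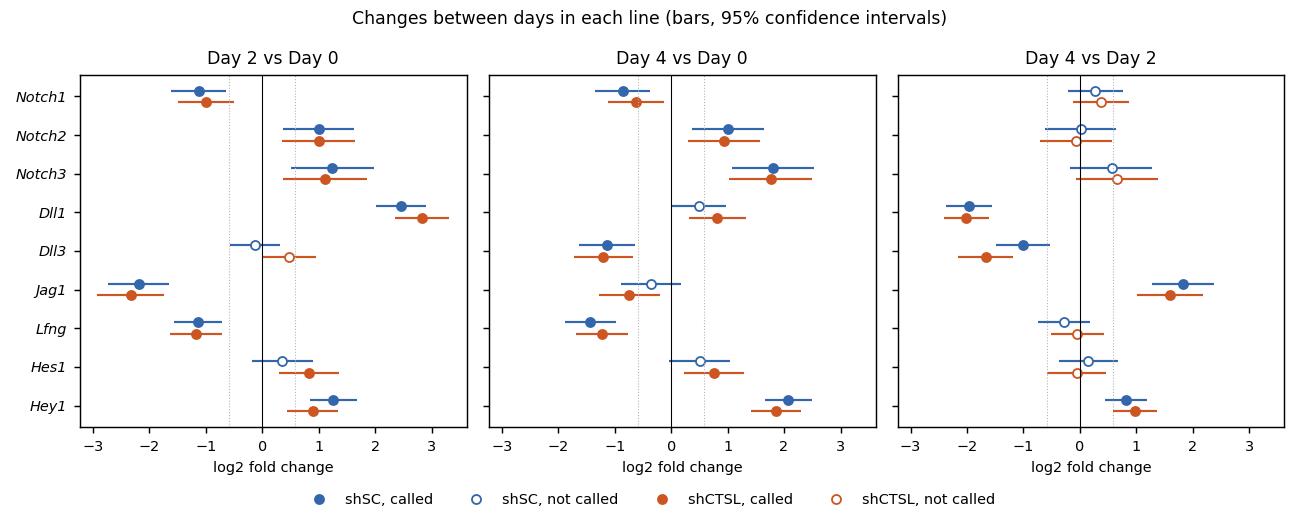
Log2 fold change between days (horizontal axes) for the 9 genes tested, with 95% confidence intervals; filled points were called, open points were not, and dotted lines mark 0.585, a 1.5-fold change. Dll1 and Jag1 lie on opposite sides of 0 at Day 2 against Day 0 (2.45 and −2.19 in shSC) and change sides at Day 4 against Day 2, in both lines.

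Lfng (chr5:141083295-141091497, plus strand), the fringe enzyme, fell early. It measured 6.56 and 5.14 CPM at shSC Day 0, 2.89 and 2.36 at Day 2, and 2.12 and 2.22 at Day 4, on 32 to 87 reads a library. In shCTSL the libraries read 5.15 and 6.0, then 2.52 and 2.38, then 2.38 and 2.36 CPM. The lines followed each other closely, and in each the Day 0 libraries lay above all later ones. The fall at Day 2 was −1.14 (SE 0.19, FDR = 0.000474) in shSC and −1.18 (SE 0.20, FDR = 0.000572) in shCTSL, and at Day 4 −1.43 (SE 0.20, FDR = 0.000126) and −1.22 (SE 0.21, FDR = 0.000398). With library weights in limma-voom the Day 2 fall in shCTSL had an FDR of 0.122.

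Hes1 (chr16:30064470-30067882, plus strand), a transcriptional repressor whose level oscillates in many progenitors, was abundant from the start. It read 51.4 and 52.7 CPM at shSC Day 0, 62.3 and 70.7 at Day 2, and 75.2 and 72.7 at Day 4. The groups did not overlap, but the differences from Day 0 of 0.35 (SE 0.24, FDR = 0.22) and 0.51 (SE 0.24, FDR = 0.083) did not pass the test. In shCTSL it read 58.0 and 51.1 CPM at Day 0, 127 and 66.1 at Day 2, and 87.9 and 96.9 at Day 4. It was called higher there at Day 2 (0.82, SE 0.24, FDR = 0.0125) and at Day 4 (0.76, SE 0.24, FDR = 0.0172). The Day 2 call rests on replicate 1, without which the value was 0.32 (FDR = 0.0147, under the fold cutoff). It was also lost without shCTSL Day 0 replicate 2 (0.0802), and the Day 4 call without that library (0.0988) or shCTSL Day 4 replicate 2 (0.0782).

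Hey1 (chr3:8663362-8667039, minus strand), a related repressor active in vessels and heart, rose at each step. It read 3.66 and 3.28 CPM at shSC Day 0, 7.50 and 9.10 at Day 2, and 13.5 and 15.7 at Day 4. The log2 fold changes were 1.26 at Day 2 (SE 0.19, FDR = 0.000213), 2.07 at Day 4 (SE 0.19, FDR = 4.41e-06) and 0.82 between them (SE 0.17, FDR = 0.0045), the last not called without shSC Day 2 replicate 1 (0.0613). In shCTSL it read 3.36 and 3.27, then 6.95 and 5.41, then 12 and 12.1 CPM. The 3 days were in the same order without overlap. The rises there were 0.89 (SE 0.20, FDR = 0.00298), 1.86 (SE 0.20, FDR = 1.34e-05) and 0.97 (SE 0.17, FDR = 0.00225), where limma-voom gave the first an FDR of 0.132 and the last 0.174. A fit of the compared libraries alone gave the last 0.077.

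Hes5 (chr4:154335032-154336480, plus strand), which marks neural progenitors that receive a Notch signal, was at the edge of detection. It had 2 to 8 reads in each of the 12 libraries, 0.108 to 0.448 CPM, and did not pass the filter on low counts. With no filter its log2 fold change from Day 0 to Day 4 was −0.31 in shSC (SE 0.83, FDR = 0.847) and −1.38 in shCTSL (SE 0.93, FDR = 0.226). A change was not detectable at this depth.

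The stretch upstream of a gene's start is where RBPJ would bind a Notch target. Hes5 and Lfng are shown. Of the 8 genes in the promoter set used, only they hold the core of the RBPJ site there. Hes1 and Hey1 are absent from that set, so their stretches were not searched. The sequences are the 250 bases before the start on the plus strand, from RefSeq (GRCm38.p6) and matched exactly to mm9 at chr4:154334782-154335031 for Hes5 and chr5:141083045-141083294 for Lfng. Capitals mark TGGGAA or its reverse complement.
Hes5: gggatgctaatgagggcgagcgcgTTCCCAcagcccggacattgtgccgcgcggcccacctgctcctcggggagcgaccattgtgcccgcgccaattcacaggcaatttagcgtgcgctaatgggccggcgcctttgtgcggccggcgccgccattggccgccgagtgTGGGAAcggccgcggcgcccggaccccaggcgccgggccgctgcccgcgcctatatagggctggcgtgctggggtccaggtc
Lfng: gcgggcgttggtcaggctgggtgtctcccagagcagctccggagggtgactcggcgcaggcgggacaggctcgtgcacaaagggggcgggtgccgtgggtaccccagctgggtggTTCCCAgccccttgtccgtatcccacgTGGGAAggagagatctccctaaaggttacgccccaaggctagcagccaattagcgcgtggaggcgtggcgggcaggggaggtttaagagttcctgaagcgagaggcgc
Each holds a copy on both strands. The first base of the copies lies 226 and 82 bases before the start in Hes5, and 135 and 108 in Lfng. The longer GTGGGAA, which contains TGGGAA, was found in both copies of Hes5 and in 1 of Lfng. TGGGAA stood on either strand in 21.6% of all 32851 promoter stretches of this length and GTGGGAA in 5.42%. The site CACNAG, bound by Hes proteins, was in the stretches of Notch1, Notch2, Notch3 and Lfng and in 36.7% of all. A match of letters is not a measured binding site, and whether these copies bear on the levels of the genes was not tested.

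Levels of different genes can be set side by side per length of transcript, here as CPM per kb of the longest protein-coding transcript. The 42 other genes of the pathway, described below, are not part of this ranking. Hes1 stood first in every group, at 35.5 ± 0.626 CPM per kb (SD, n = 2) at shSC Day 0 and 50.4 ± 1.2 at Day 4. At shSC Day 0 the receptors followed close together, with Notch1 at 8.10 ± 0.0596, Notch3 at 7.44 ± 0.431 and Notch2 at 6.82 ± 0.249, an order in which the last pair lies within about their spread. By Day 4 they had spread out, with Notch3 at 25.8 ± 1.43, Notch2 at 13.7 ± 0.572 and Notch1 at 4.48 ± 0.440. Of the ligands Dll1, Dll3 and Jag1 in shSC, Jag1 led at Day 0 (4.56 ± 0.252), before Dll3 (2.09 ± 0.176) and Dll1 (0.614 ± 0.0355). At Day 2 Dll1 led (3.36 ± 0.257), before Dll3 (1.91 ± 0.135) and Jag1 (0.998 ± 0.0227). At Day 4 Jag1 led again (3.55 ± 0.932), and Dll3 (0.951 ± 0.0810) and Dll1 (0.871 ± 0.166) differed by less than their spread. Hes5 was last in every group, at 0.101 to 0.259.

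Among the 42 other genes of the pathway, changes in both directions were called. In shSC 15 were higher (29.3% of all genes) and 6 lower (25.3%) at Day 2, and 19 higher (32.1%) and 8 lower (28.7%) at Day 4, with medians of 0.29 and 0.45 on the log2 scale. In shCTSL 16 were higher (30.9%) and 4 lower (24.6%) at Day 2, and 21 higher (32.3%) and 6 lower (27.6%) at Day 4. Between Day 2 and Day 4 the counts were 9 higher (11.4%) and 6 lower (12.4%) in shSC and 8 higher (11.0%) and 6 lower (12.4%) in shCTSL. The 5 largest rises from Day 0 to Day 4 in shSC were those of Maml3 (7.99, SE 0.78), Dtx4 (6.02, SE 0.26), Dlk1 (5.86, SE 0.17), Maml2 (4.72, SE 0.32) and Aph1b (4.45, SE 0.54). Maml2 and Maml3 encode Mastermind coactivators, Dtx4 a Deltex ubiquitin ligase, Dlk1 a noncanonical ligand of an imprinted locus, and Aph1b a gamma-secretase subunit whose reads may be shared with its near copy Aph1c. Maml3 went from 0.0762 and 0.372 CPM to 62.7 and 61.9, a start so low that the size of its fold is uncertain. Dtx4 went from 2.59 and 3.59 CPM to 217 and 189, and Dlk1 from 1.75 and 1.80 to 92.6 and 114. The 5 largest falls were those of Hes3 (−3.45, SE 0.85), Notch4 (−3.09, SE 0.17), Dtx1 (−2.86, SE 0.21), Mfng (−2.54, SE 0.28) and Jag2 (−2.25, SE 0.18), a repressor, the receptor of endothelium, a second Deltex, a second fringe enzyme and the second Jagged ligand. Notch4 fell from 37.0 and 40.0 CPM to 4.15 and 4.92 and Jag2 from 47.2 and 49.8 to 10.3 and 10.1. Hes3 was at 0.915 and 0.991 CPM at Day 0 and 0.0442 and 0.139 at Day 4, and with each fall the adjusted p was at most 0.000891.

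**Figure D3:**
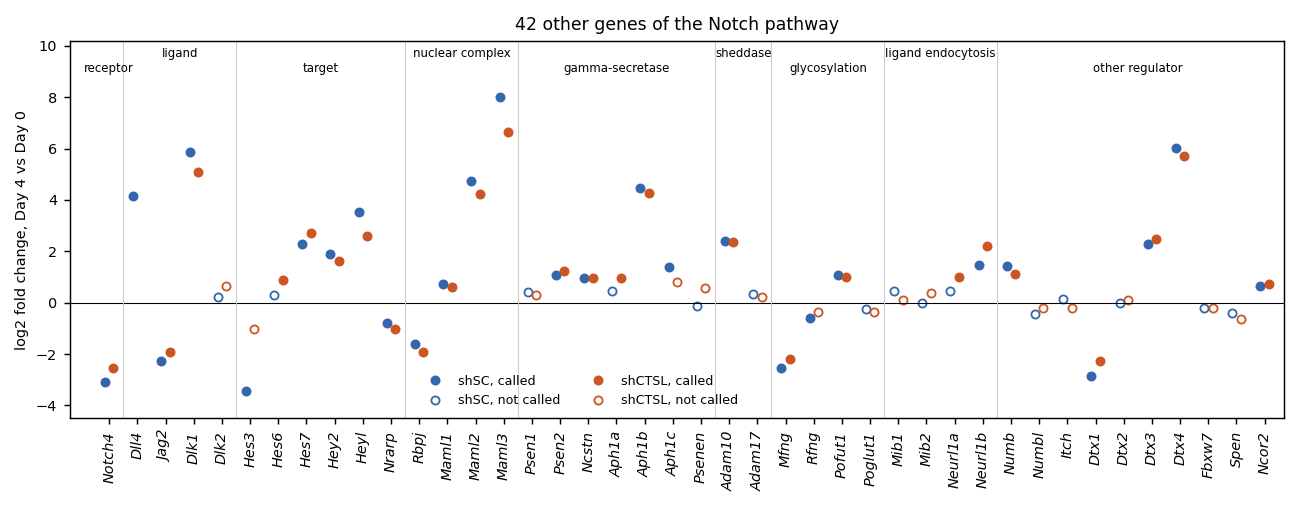
Log2 fold change from Day 0 to Day 4 (vertical axis) of 42 other pathway genes, grouped by role, in shSC (blue) and shCTSL (orange); filled points were called. Dll4 in shCTSL is not drawn because both Day 0 libraries were at 0. Maml3, Dtx4 and Dlk1 lie highest in both lines among the genes drawn (7.99, 6.02 and 5.86 in shSC).

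The lines were then compared on each day. No gene of the 10 was called different between shCTSL and shSC by edgeR on any day, where 0.0386% of all genes were called at Day 0, 0.0644% at Day 2, 0.0129% at Day 4 and 0.270% averaged over the 3 days. At Day 0 the log2 differences of the 9 genes ran from −0.51 to 0.07, with 8 below 0, and their 95% intervals reached from −1.03 to 0.61. They ran from −0.44 to 0.54 at Day 2 and from −0.68 to 0.32 at Day 4, with 6 below 0 on each day, within intervals that reached from −1.10 to 1.07 and from −1.21 to 0.85. A difference of 1.5-fold (0.585) in at least 1 direction thus lay inside the interval of most of the genes at Day 0 and Day 2, and of all 9 at Day 4. An unadjusted p under 0.05 was reached by 1 gene at Day 0 (7.26% of all genes), 2 at Day 2 (19.4%), 1 at Day 4 (12.2%) and 5 across the averaged days (22.6%). DESeq2 called none of the 9 in these 4 comparisons either, and limma-voom called Jag1 at Day 4 alone. Of all 15532 genes DESeq2 called 132 at Day 4 and limma-voom 723. Of the 42 other pathway genes edgeR called none between the lines. Limma-voom called 3 of them at Day 0 (254 of all genes) and 4 at Day 4 (723). The compared libraries alone gave 2 (269) and 3 (711), and omission of the shCTSL Day 2 group gave 1 (212) and 4 (909).

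Notch1 had the largest difference at Day 0, with 77.3 and 76.5 CPM in shSC against 51.6 and 56.7 in shCTSL. The libraries did not overlap, and the log2 difference was −0.51 (SE 0.22, FDR = 0.663). Over the 3 days it was −0.39 (SE 0.13, FDR = 0.17) for Notch1 and −0.41 (SE 0.16, FDR = 0.202) for Notch2. Without replicate 2 of shCTSL Day 2 the Notch2 value was −0.65 (SE 0.06, FDR = 5.33e-07) and was called, in a fit that called 1217 of all genes. Long genes in general were lower in shCTSL. Genes with over 8 kb of exons had a median line difference of −0.12 at Day 0, −0.29 at Day 2 and −0.26 at Day 4, and those under 2 kb had 0.02, 0.31 and 0.22. After each library's trend with exon length was taken out by offsets, Notch1 came to −0.34 (SE 0.10, FDR = 0.266) at Day 0 and −0.13 over the days (SE 0.06, FDR = 0.218), and Notch2 to −0.22 (SE 0.08, FDR = 0.179).

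**Figure D4:**
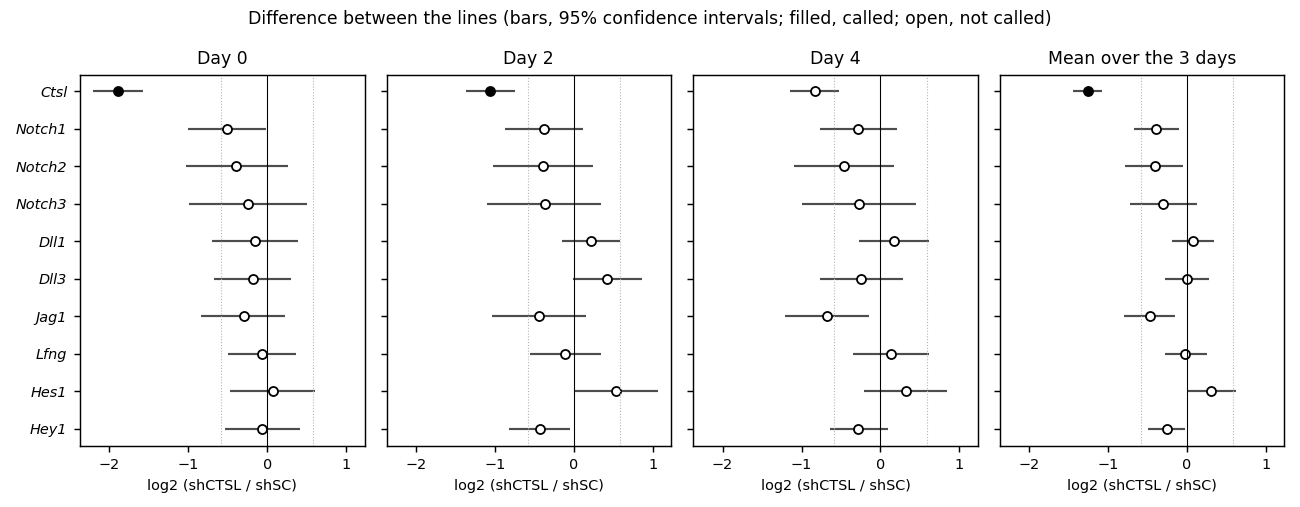
Log2 ratio of shCTSL to shSC (horizontal axes) on every day and averaged over all 3 for Ctsl and the 9 genes tested, with 95% confidence intervals; filled points were called and dotted lines mark 0.585. Ctsl alone has filled points (−1.89 at Day 0), and Jag1 lies lowest of the 9 at Day 4 (−0.68).

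Jag1 had the largest difference at Day 4. It measured 23.6 and 16.2 CPM in shSC and 14.6 and 10.4 in shCTSL, so that every shCTSL library lay below every shSC library. The log2 difference was −0.68 (SE 0.24), with an FDR of 0.348 when all 12 libraries set the spread. It was called when the spread came without the shCTSL Day 2 group (−0.68, SE 0.16, FDR = 0.00783), from the 4 compared libraries alone (−0.66, SE 0.19, FDR = 0.0352), with library weights in limma-voom (−0.72, SE 0.18, FDR = 0.0167), or without replicate 1 (FDR = 0.00714) or replicate 2 (0.0073) of shCTSL Day 2. With the length offsets it was −0.58 (SE 0.19, FDR = 0.214). These 5 fits called 711 to 926 of all genes, where the fit of all 12 libraries called 2. Over the 3 days Jag1 was −0.47 (SE 0.14, FDR = 0.157), and −0.62 (SE 0.13, FDR = 0.000631) without replicate 2 of shCTSL Day 2.

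At Day 2 the comparison turned on the shCTSL libraries. Hes1 was 0.54 higher (SE 0.24, FDR = 0.252) and Hey1 −0.43 (SE 0.17, FDR = 0.235) in shCTSL, with Hey1 at 6.95 and 5.41 CPM against 7.50 and 9.10. Without replicate 2 of shCTSL Day 2, 6 genes were called, which were Notch1 (−0.80), Notch2 (−1.09), Notch3 (−1.22), Jag1 (−0.86), Hes1 (0.94) and Dll3 (0.64). In that fit 31.6% of all genes were called. Without replicate 1 none was called, and Notch2 and Notch3 stood at 0.08 and 0.16. The 4 that were then lower hold 5.83 to 14.2 kb of exons, whereas Dll3 and Hes1 hold 2.88 and 2.04 kb, as in the comparison of the replicates themselves, where Notch2 read 67.3 against 151 CPM and Hes1 127 against 66.1. With the length offsets the Day 2 difference of Notch1 was −0.06 (SE 0.10, FDR = 0.771), that of Notch2 −0.16 (SE 0.14, FDR = 0.526) and that of Notch3 −0.21 (SE 0.22, FDR = 0.576). Hes1 came to 0.30 (SE 0.15, FDR = 0.282) and Hey1 to −0.61 (SE 0.15, FDR = 0.106).

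**Figure D5:**
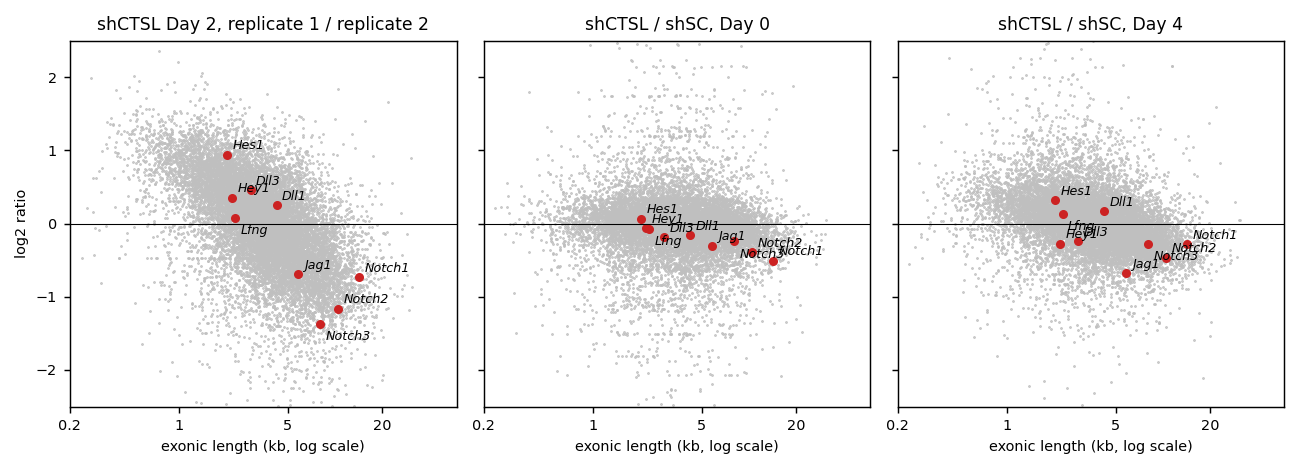
Log2 ratio (vertical axes) against exonic length in kb (log scale) for every gene with a length (gray) and the 9 tested genes of the pathway (red), for shCTSL Day 2 replicate 1 against replicate 2 and for shCTSL against shSC at Day 0 and Day 4; values beyond 2.5 are not drawn. Between the Day 2 replicates the ratio falls with length, from a median of 0.59 under 2 kb to −0.64 over 8 kb, and the receptors lie at the low end.

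Whether the lines differed in their changes between days was tested by interaction. None of the 9 genes was called by edgeR in any of the 3 interactions, against 0% of all genes for Day 2 against Day 0, 0.00644% for Day 4 against Day 0 and 0% for Day 4 against Day 2, and none had an unadjusted p under 0.05. DESeq2 and limma-voom called none either. The values ran from −0.37 to 0.61, from −0.37 to 0.32 and from −0.66 to 0.24, with 95% intervals that reached from −1.35 to 1.26. Dll3 had the largest value from Day 0 to Day 2 (0.61, SE 0.29, FDR = 0.468) and from Day 2 to Day 4 (−0.66, SE 0.31, FDR = 1). Both rest on its higher level in shCTSL Day 2, 7.82 and 5.66 CPM against 4.75 and 5.25 in shSC. Without replicate 2 of that group 4 genes were called in each of those interactions, Dll3 among them (0.83, FDR = 0.0246, and −0.88, FDR = 0.0367), and so were 26.0% and 14.7% of all genes.

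Each of the 9 tested genes had close companions in its course over the 12 libraries, given as Pearson correlations of log2 CPM over libraries that share their days. The 12 include the shCTSL Day 2 libraries, which differed from each other with gene length. What lies behind the shared courses was not tested. Dll1 was followed by Vstm2l (0.992) and Fam64a (0.990), where Vstm2l had means of 0.691, 37.3 and 0.817 CPM on the 3 days of shSC. Jag1 was followed by Stat3 (0.981) and Tns3 (0.980). Stat3, the factor that carries the LIF signal, had means of 188, 70.4 and 146 CPM, with the same dip at Day 2. Notch3 was nearest to Tulp4 (0.996) and Bcl9 (0.995), Notch2 to Mapkbp1 and Rabgap1l (both 0.983), and Notch1 to Sec16a (0.987) and Gnptab (0.982). Hey1 was nearest to Gimap6 (0.987) and Zfp422 (0.986), Hes1 to Nt5c and Dctn2 (both 0.982), Dll3 to Ptgis (0.965) and Pld6 (0.961), and Lfng to Sfrp4 (0.985) and Stac2 (0.984). Among the genes themselves the strongest correlations after that of Dll1 and Jag1 were those of Notch2 with Notch3 (0.92) and Hey1 with Lfng (−0.89).

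Some reads could belong to neighbours. Exons of genes on the opposite strand overlap exons of Notch1 (0610009E02Rik and Gm13568), Notch3 (Gm17276), Dll1 (A930024N18Rik) and Hes5 in GENCODE M1. The library kit marks strand, but no source used here says whether the counting kept it. Reads in the stretches that Notch1, Notch3, Dll1 and Hes5 share with these neighbours thus cannot be assigned with certainty. How much of each gene is shared was not measured.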

How the data were processed

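RNA-seq was made from 12 libraries, 2 in each of 6 groups. Poly(A) RNA was selected and directional libraries were made. Per the study's methods and the submitters' notes, reads were aligned to mm9 with STAR 2.3.0e, alignments with a low mapping quality, on mitochondria or on other contigs were removed with SAMtools 0.1.19, and fragments were counted per RefSeq gene with featureCounts 1.6.2. The deposited values are raw counts per gene, with no normalization by the authors, who tested them with DESeq2 1.16.1.

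Counts were fitted in R 4.3.3 with edgeR 4.0.16 (quasi-likelihood F test, TMM normalization, a mean per group over all 12 libraries, 6 residual degrees of freedom). The filterByExpr function with a minimum count of 10 kept 15532 of 24495 genes. CPM are counts per 1000000 reads of the TMM-scaled library. The FDR is the Benjamini-Hochberg adjusted p, taken across every gene in the fit. A gene was called when this FDR lay below 0.05 and the change reached 1.5-fold (0.585 as log2). The authors' cutoff of 1.5 can be read on the log2 scale, which was an alternative. Standard errors come from the fit. All p-values are two-sided and measure the spread between these libraries, described as biological replicates, whose separate origin is not detailed.

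The genes, gene lists and markers were chosen with earlier results of these data known. Named beside the 10 genes were the pathway list's 5 highest and 5 lowest called log2 fold changes, shSC Day 4 against Day 0. Any gene of that list called between the lines by the main fit was also to be named, but there was none. Also named were Ctsl and the 2 genes nearest to each member by Pearson correlation over log2 CPM (prior count 2, predicted loci left out). Alternatives were RLE normalization, DESeq2 1.42.0, limma-voom (limma 3.58.1) with library weights, no filter, at least 1 CPM in 2 libraries, only the libraries compared, omission of the shCTSL Day 2 group or of each library in turn, no fold cutoff, a replicate block, and length offsets. Exonic lengths and positions come from GENCODE M1 (mm9), where 91.2% of genes were found. Promoter stretches are the 250 bases before each RefSeq start. Scripts were tested on simulated data. Figures were drawn in Python 3.11.15 with matplotlib 3.10.9.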

Additional observations from a re-analysis of the deposited data

How the results depend on the processing

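Of the recomputed counts of called members, 287 stayed within 1.5 times the reported count, 10 were higher and 9 lower. RLE normalization, DESeq2, both filters, no fold cutoff, the length offsets, and the replicate block with and without them moved none beyond that. A log2 cutoff of 1.5 left 2 genes in each comparison between days except shCTSL Day 4 against Day 2, which kept 3. Of all 15532 genes it left 3844, 4778 and 1462 in shSC (Day 2 and Day 4 against Day 0, Day 4 against Day 2). In shCTSL it left 3981, 4697 and 1312. With limma-voom 2 genes were called in shCTSL Day 4 against Day 2, where 1255 of all 15532 genes were called. Between the lines at Day 4 it called 1, Jag1, where 723 of all genes were called. A fit of the compared libraries alone called 5 genes in shCTSL Day 2 against Day 0 (6594 of all genes). It did not call Notch2 (FDR = 0.0914), Notch3 (0.0934) or Hes1 (0.0984) there. It called 2 in shCTSL Day 4 against Day 2 (1201) and 1 between the lines at Day 4 (711). Omission of the shCTSL Day 2 group also called 1 between the lines at Day 4 (909 of all genes). When each library was left out in turn, the counts ran over 5 to 7, 5 to 7 and 3 to 4 in shSC (Day 2 and Day 4 against Day 0, Day 4 against Day 2), over 6 to 8, 5 to 9 and 4 to 7 in shCTSL, and between the lines over 0 at Day 0, 0 to 6 at Day 2, 0 to 1 at Day 4 and 0 to 2 in the mean, with 0 to 4, 0 and 0 to 4 in the interactions. The 9 genes called in shCTSL Day 4 against Day 0 came to 5 without shCTSL Day 0 replicate 1. The upper values between the lines, in the interactions and in shCTSL Day 4 against Day 2 came without shCTSL Day 2 replicate 2 (the 1 at Day 4 also without its replicate 1), which leaves that group with 1 library, assumed to vary like the others. Notch2 and Notch3 then differed by −1.09 and −1.22 at Day 2 between the lines. Without replicate 1 of that group the Day 2 line differences of Notch2 and Notch3 turned to 0.08 and 0.16. In the fit that gave the 5 and in those that gave the upper values, the count of all genes called moved the same way. Those member counts thus do not set the genes apart. The cause of these shifts was not tested.

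Groups share replicate numbers, but the deviations of like-numbered libraries correlated at −0.359 to 0.156 over 15 pairs of groups, with 1 above 0.1. A pairing of libraries by number was thus not seen, which does not exclude one. The replicate block left every member count as it was, for example 7 in shSC Day 2 against Day 0.

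With 2 libraries a group the intervals of the line differences were wide. Hes5 and Lfng on all days, and Dll3 and Dll1 at Day 0 and Day 4, rest on fewer than 100 reads a library. So do Hey1 at Day 0 and Jag1 in shCTSL Day 2 replicate 1. The counts are for genes, not isoforms, and say nothing of Notch cleavage.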
